A study of Arabidopsis thaliana with 12 samples.

Results

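One group of Arabidopsis seedlings in this series had both the growth hormone gibberellin (GA) and its receptors, and 3 groups lacked one or the other. The first group is set here against the other 3. It consists of the 3 of 12 arrays labelled as the ga-1 mutant (SALK_109115), which is impaired in making GA, and exposed for 1 h to the gibberellin GA3 at 100 µM. The GA-silent groups are ga-1 mock-treated for 1 h (little hormone), the gid1a-1 gid1b-1 gid1c-2 triple mutant, called gid1 here, mock-treated for 1 h (receptors mutated), and gid1 given 100 µM GA3 for 1 h (hormone without intact receptor genes). Each silent group also has 3 arrays, and the labels call the arrays of a group independent biological replicates. All seedlings were 7 days old and light-grown on medium, and all carried mutations in the GA pathway, so no wild type enters any comparison. The ga-1 groups rest on 1 allele and the gid1 groups on 1 combination of alleles. The word silent describes the design, since GA itself was not measured.

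GA binds a GID1 receptor, and the complex recruits DELLA proteins, nuclear repressors of growth, to an F-box protein that marks them for degradation. In seedlings without GA, DELLA proteins accumulate and hold up the transcription of a set of genes that includes GA biosynthesis and receptor genes, a negative feedback that keeps the pathway in balance. The comparison below asks which genes stood at one level in all of the silent states and at another where hormone and receptor met.

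The arrays (Affymetrix ATH1, whole seedlings) hold MAS5 signals, a linear intensity for each of 22810 probe sets, and 22746 remained without the control probe sets. Array medians lay between 169.7 and 188.8, and the number of arrays limits the precision. Correlations between arrays ran from 0.911 to 0.942 on the log2 scale over all probe sets tested. The library labels were checked on the mutated receptor genes, described with the silent groups below. Of the leaf list only RCA (Rubisco activase) could be named, with 24078 ± 3619 (SD, n = 3) in ga-1 with GA3 and 22920, 24855 and 22154 as means of the silent groups. The root list had 3 measured genes. PYK10, a root and hypocotyl beta-glucosidase gene, averaged between 11635 and 13986 in the 4 groups, with the highest mean in ga-1 with GA3. EXPA7 averaged between 77.3 and 122 and EXPA18 between 137 and 146, both with the highest mean in gid1 with GA3. All 3 measured pollen genes had group means of 46.6 or lower. The arrays differed in seed genes: the mean log2 value of the 4 measured genes of a seed and embryo list (AT3G02480, ICL, LEA18 and PAP85) was 7.79 to 9.07 in gid1 with GA3 and 8.59 in ga-1 mock replicate 2. It was 4.51 to 5.48 in gid1 mock, 4.57 and 6.48 in the other ga-1 mock arrays, and 5.04 to 5.66 in ga-1 with GA3. None of these 4 genes was called below against the mean of the silent groups. Against gid1 with GA3 alone, AT3G02480 was called (log2 difference -2.95, limma adjusted p = 0.019). AT1G04560 was called against the silent mean (-3.11, limma adjusted p = 0.020). It gave 131.8 in ga-1 mock replicate 2 and 39.6 to 116.8 in gid1 with GA3. The other ga-1 mock arrays gave 44.5 and 51.9, gid1 mock 11.5 to 37.7, and ga-1 with GA3 1.8 to 12.9. The part of the seed-gene signal in other results was not tested beyond the fits without those arrays.

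Signals were floored at 1 and taken to log2. A probe set was called when limma's moderated test of ga-1 with GA3 against the mean of the 3 silent groups, each with equal weight, gave a Benjamini-Hochberg adjusted p under 0.05 over all 22746 probe sets. With GA3 in ga-1, 213 probe sets fell below the silent level (0.936% of those tested) and 55 rose above it (0.242%), together 268 (1.18%). The median log2 difference of the calls was -0.83 for those that fell and 0.73 for those that rose. Of the 268, 91 differed at least 2-fold, 76 of them downward. Genes could be named for 117, of which 95 fell and 22 rose, and the other 151 probe sets have no single gene in the annotation used. Leaving out the 4 arrays high in seed genes (ga-1 mock replicate 2 and gid1 with GA3) reduced the count to 144, of which 121 fell and 23 rose, and 140 of the 144 were among the 268. The count was 164, with 141 lower and 23 higher, without ga-1 GA3 replicate 1. The higher count alone was 23 without ga-1 GA3 replicate 2 and 35 when the gid1 GA3 group was left out. With a prior variance that does not follow intensity the total was 95. In whole seedlings fewer cells of a type and less RNA per cell cannot be told apart, here and below.

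Among named genes XERICO (AT2G04240) had the smallest p. It encodes a RING protein and is a known target that DELLA proteins activate. Its signal on the 3 arrays of ga-1 with GA3 was 528, 342 and 438. On the silent arrays it was 1987, 1879 and 1964 (ga-1 mock), 1933, 2080 and 2242 (gid1 mock), and 2015, 1818 and 1716 (gid1 with GA3). Every silent array was thus more than 3 times as high as any array with GA signalling, and the silent groups overlapped one another. The log2 difference was -2.19 ± 0.11 (SE), with an adjusted p of 7.2e-09, a 4.55-fold fall. Taken 1 group at a time, the differences were -2.18, -2.28 and -2.10 against ga-1 mock, gid1 mock and gid1 with GA3.

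AT5G40540, a protein kinase gene, gave 229, 228 and 252 in ga-1 with GA3. The 9 silent arrays ran from 586 to 739 with a median of 639, and no silent group lay apart from the others. Its log2 difference was -1.45 ± 0.10 (SE; adjusted p = 4.8e-07). SLY1 (AT4G24210) encodes the F-box subunit through which DELLA proteins are degraded, and gave 488, 348 and 418 with GA signalling. Its silent arrays ran from 806 to 1413 with a median of 927, again without overlap, and the log2 difference was -1.20 ± 0.14 (SE; adjusted p = 0.00030).

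IQD22 (AT4G23060), of a family of calmodulin-binding scaffold proteins found at microtubules and membranes, gave 250, 179 and 198 with GA signalling and a median of 618 over the silent arrays. The lowest silent array, 335 in gid1 mock replicate 1, stood apart from the other 8 but above all 3 arrays with GA signalling, and the log2 difference was -1.51 ± 0.19 (SE; adjusted p = 0.00032). TRM28 (AT5G03670), of the TON1-recruiting motif family, whose founding members organise cortical microtubules, gave 69.5, 39.8 and 72.9 against a silent range of 150.5 to 262.6. Its difference of -1.80 ± 0.21 (SE; adjusted p = 0.00023) was -1.51 against ga-1 mock and -2.05 against gid1 with GA3, so the silent groups differed more among themselves here than for XERICO.

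**Figure D1:**
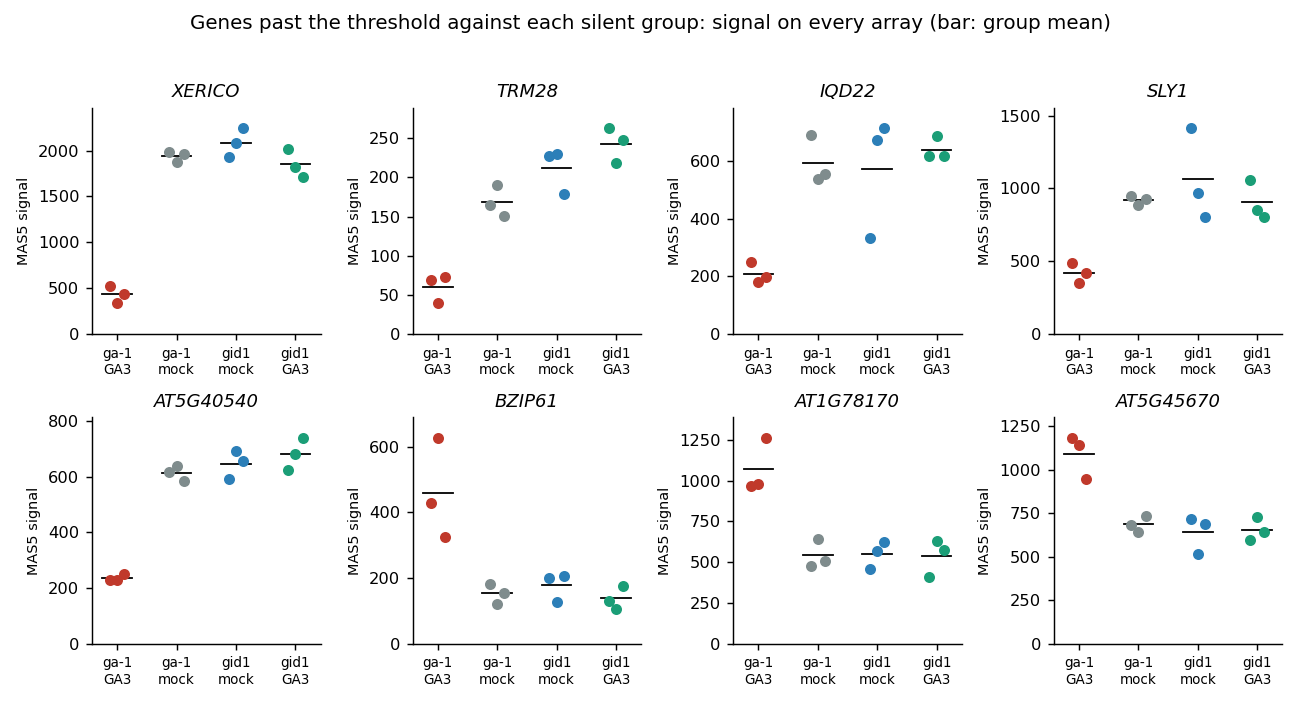
MAS5 signal on each of the 12 arrays (linear axis from 0) for 8 named genes past the threshold against each silent group. Points are arrays, bars are group means, red marks ga-1 with GA3 and the other colours mark the silent groups. XERICO, TRM28, IQD22, SLY1 and AT5G40540 are lower and BZIP61, AT1G78170 and AT5G45670 are higher in ga-1 with GA3 than on all 9 silent arrays.

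The other 8 of the 12 largest falls among named genes without overlap between the groups are given by locus, with no role stated. AT1G17830 fell 5.56-fold (log2 difference -2.48 ± 0.37, adjusted p = 0.0016) and AT4G16447 3.89-fold (-1.96 ± 0.26, adjusted p = 0.00063). AT1G29270 (-1.72), AT1G21060 (-1.65), AT5G25210 (-1.45), AT3G60290 (-1.36) and AT1G28190 (-1.30) followed, with adjusted p between 0.0019 and 0.0099. AT1G17540 lay close to the lowest signals of the array, at 2.4, 5.3 and 5.0 with GA signalling against 7.8 to 53.1 in the silent groups (log2 difference -2.55 ± 0.60, adjusted p = 0.049). Its call was lost in 18 of 23 alternative settings. The largest falls of all were those of probe sets without a single gene in the annotation. Probe set 261768_at gave 182, 180 and 197 with GA signalling and 3038 to 4235 in the silent groups (log2 difference -4.29 ± 0.09, adjusted p = 2.2e-14). Probe set 248371_at gave 75.7, 31.2 and 89.7 against 724 to 961 (-3.76 ± 0.22, adjusted p = 7.4e-08). In both the 9 silent arrays formed 1 narrow band, with silent group means spanning 0.19 on the log2 scale.

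Fewer genes rose. BZIP61 (AT3G58120), a basic leucine zipper transcription factor gene, gave 428, 626 and 325 with GA signalling, all above the silent range of 107.1 to 205. Its log2 difference was 1.54 ± 0.23 (SE; adjusted p = 0.0013), with 1.55, 1.35 and 1.72 against ga-1 mock, gid1 mock and gid1 with GA3. The related gene BZIP34 (AT2G42380) rose too, from silent signals between 1.6 and 7.5 to 61.1, 42.4 and 32.8 (log2 difference 3.56 ± 0.75, adjusted p = 0.025). Its silent values are near the floor, so the size of this rise depends on the scale: it was 1.08 with log2(value + 32).

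AT1G78170 gave 969, 979 and 1261 against a silent range of 406 to 645 (log2 difference 0.98 ± 0.14, adjusted p = 0.0013). Its 3 silent group means were the closest of the named rises, spanning 0.05 on the log2 scale. AT5G45670, a GDSL-type lipase gene, rose by 0.73 ± 0.11 (adjusted p = 0.0024). The pectate lyase family genes AT5G48900 (0.77, adjusted p = 0.0093) and AT3G07010 (0.81, adjusted p = 0.046) also rose. So did AT5G65300 (0.99, adjusted p = 0.0093), AT3G57800, a bHLH transcription factor gene (0.73, adjusted p = 0.0067), AT5G22580 (0.65, adjusted p = 0.015), AT5G52430 (0.66, adjusted p = 0.034) and AT3G51660 (0.67, adjusted p = 0.038). The calls of AT3G07010, AT3G51660 and AT5G52430 were lost in 16, 15 and 13 of 25 alternative settings.

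Whether the silent groups agree was first read from the 3 single comparisons, which share the ga-1 GA3 arrays and are given side by side. Against ga-1 mock 109 probe sets were called (0.479%), 89 lower and 20 higher (0.391% and 0.0879%). Against gid1 mock 159 were called (0.699%), 132 lower and 27 higher (0.58% and 0.119%). Against gid1 with GA3 170 were called (0.747%), 126 lower and 44 higher (0.554% and 0.193%). For the 213 probe sets that fell, the median log2 differences against these groups were -0.77, -0.88 and -0.84, and for the 55 that rose 0.66, 0.76 and 0.89. All 268 called probe sets had 1 sign against the 3 silent groups, as did 54.6% of all probe sets. The call on the mean of these groups largely fixes this for the 268. In 6 of the 268 a single difference was under 0.5 of the main one: AT5G12050, AT1G23390, AT2G20620 and 3 probe sets without a single gene.

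The strictest set passed the threshold against each silent group alone. It held 77 probe sets (0.339%), 67 lower (0.295%) and 10 higher (0.044%), and 27 of them could be named. All 77 showed no overlap between the arrays with GA signalling and the 9 silent arrays, as 2.6% of all probe sets did (1.54% lower and 1.06% higher). The rule that chose the 77 used the same arrays and largely fixes this. The named genes that rose were BZIP61, AT1G78170 and AT5G45670. Among the 24 named genes that fell were XERICO, AT1G17830, AT4G16447, TRM28, AT1G21060, IQD22, AT5G40540 and SLY1. Among the rest of the 268, 51 passed against 2 silent groups, 77 against 1 and 63 against none alone. A miss against a single group does not show that the silent groups differ, since a single comparison rests on fewer arrays. AT2G39710 passed against none alone, with differences of -0.90, -0.90 and -0.87 and a silent span of 0.03. On simulated arrays with 200 probe sets altered by 1 on the log2 scale, 164 passed against the silent mean and 127 against each silent group. When single ga-1 mock arrays were left out (replicates 1, 2 and 3 in turn) the strict count was 43, 36 and 39. It was 51 without ga-1 GA3 replicate 1, 36 without the arrays high in seed genes, and 13 with the prior variance that does not follow intensity.

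**Figure D2:**
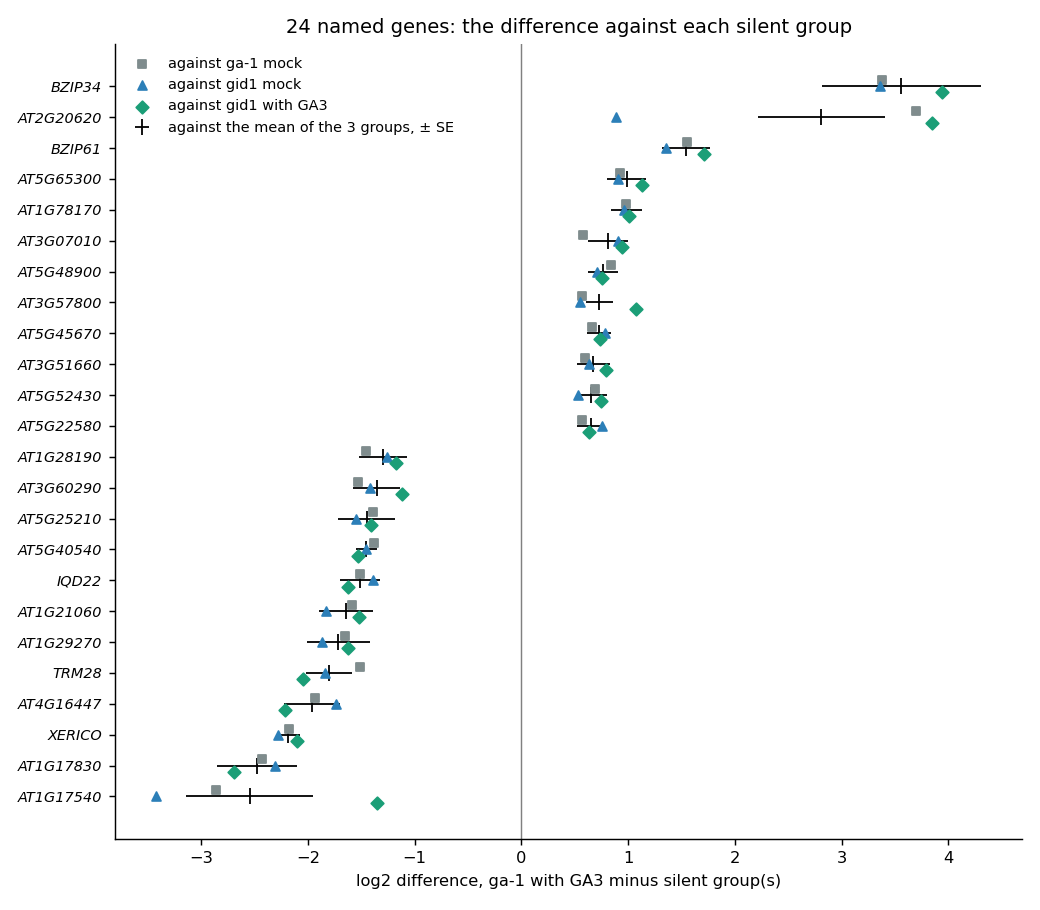
Log2 difference (x axis) between ga-1 with GA3 and each silent group for the 12 largest rises and 12 largest falls among named genes whose arrays do not overlap. Coloured symbols are the single groups, the black bar is the difference from the mean of the 3 groups ± SE. For XERICO the symbols lie between -2.28 and -2.10, while for AT2G20620 and AT1G17540 they lie far apart.

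The silent groups were then compared with one another. These differences use no array with GA signalling, but the estimate of the spread behind their p values is shared by all 12 arrays. An F test over the 3 silent groups was called for 3 probe sets (0.0132%), and 1148 (5.05%) had an unadjusted p under 0.05. None of the 3 was among the 268. The F count was 5 without ga-1 mock replicate 1 and 5 without gid1 mock replicate 1. In pairs, 3 probe sets were called between gid1 mock and ga-1 mock and 3 between gid1 with GA3 and ga-1 mock (0.0132% each), all lower in gid1. Between gid1 with GA3 and gid1 mock limma called 0 (0%), and 1208 had an unadjusted p under 0.05. Of the 268, 31 (11.6%) had an unadjusted F p under 0.05, 19 of the 213 that fell and 12 of the 55 that rose. The main call used the same estimate of the spread, so this share is not independent of it. The span of the silent groups, the highest minus the lowest of their mean log2 values, had a median of 0.25 for the 268 and 0.31 for all probe sets. The called probe sets had higher signals (median mean log2 value 8.98, against 7.47 for all), and the part of signal level in the spans was not tested. Set against the main difference, which the call used and which does use the arrays with GA signalling, the span was at most 0.5 of it in 223 of the 268. This ratio is given as a description, since the call favours a small one.

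**Figure D3:**
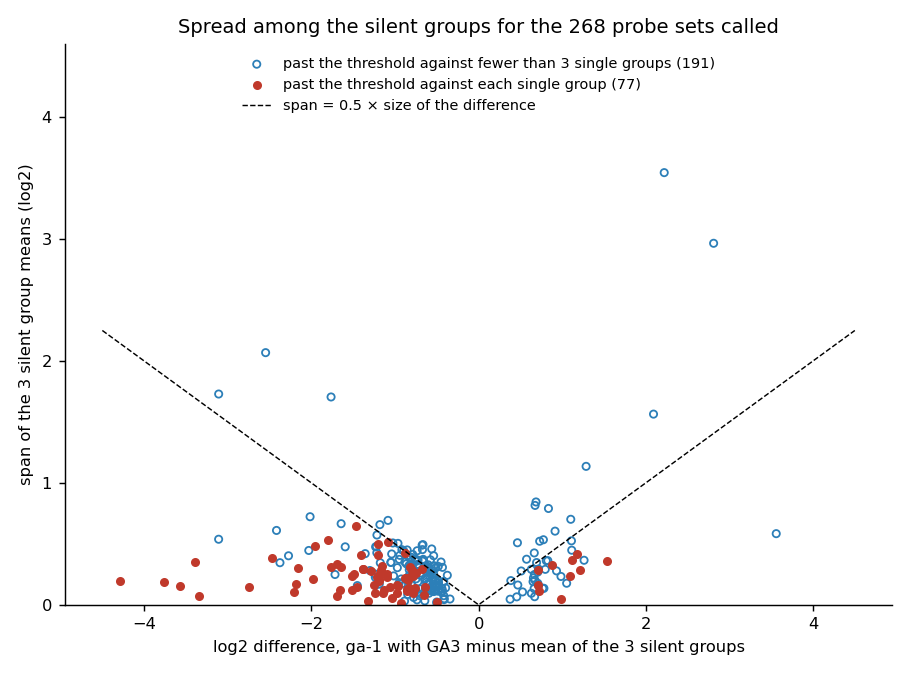
Span of the 3 silent group means (y axis, log2) against the difference between ga-1 with GA3 and their mean (x axis, log2) for the 268 probe sets called. Filled points are the 77 past the threshold against each silent group, and 223 points lie on or below the dashed line, where the span is 0.5 of the difference. The widest span, 3.54, is that of a probe set whose ga-1 groups were both high.

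The order of the silent groups was read among the calls. Of the 213 probe sets that fell, 130 (61.0%) had a lower mean in ga-1 mock than in the gid1 groups, against 47.6% of all probe sets. Of the 55 that rose, 43 (78.2%) had a higher mean in ga-1 mock, against 52.4% of all. The shift was small beside the calls: its median was -0.04 for those that fell and 0.12 for those that rose, against 0.01 for all probe sets. Among the 213 falls the lowest silent group, nearest to ga-1 with GA3, was gid1 with GA3 in 81, ga-1 mock in 77 and gid1 mock in 55. Among the 55 rises the highest silent group was ga-1 mock in 30, gid1 mock in 17 and gid1 with GA3 in 8. Over all probe sets ga-1 mock was the lowest silent group in 31.3% and the highest in 34.8%. Among the calls, ga-1 mock was thus most often the nearest group for the rises but not for the falls. These counts were not tested, and the seed genes that set gid1 with GA3 apart were not separated from them.

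The probe sets called among the silent groups included 2 of the mutated receptor genes. GID1A (AT3G05120) gave 686, 640 and 710 in ga-1 mock. It gave 68.9, 70.9 and 42.4 in gid1 mock, and 55.5, 60.9 and 64.0 in gid1 with GA3 (F adjusted p = 1.3e-06). In ga-1 with GA3 it gave 209, 194 and 235, above all gid1 arrays and below all ga-1 mock arrays. Its log2 differences were -1.68 against ga-1 mock (adjusted p = 0.0025), 1.84 against gid1 mock (adjusted p = 0.00094) and 1.82 against gid1 with GA3 (adjusted p = 0.00099), so the mean of the silent groups describes none of them. GID1B (AT3G63010) gave 458, 541 and 544 in ga-1 mock, but 47.5, 74.2 and 66.9 in gid1 mock and 112, 93.1 and 78.3 in gid1 with GA3. At 87.6, 73.3 and 79.0 in ga-1 with GA3 it overlapped the gid1 arrays. Its log2 difference was -2.68 against ga-1 mock (adjusted p = 5.5e-05), 0.37 against gid1 mock and -0.23 against gid1 with GA3. The difference from the silent mean was -0.85 (adjusted p = 0.082), and the F adjusted p among the silent groups was 7.2e-05. GID1C (AT5G27320) stood at 94.8 ± 18.5 (SD, n = 3) in ga-1 with GA3 and at 101, 125 and 147 as means of ga-1 mock, gid1 mock and gid1 with GA3 (log2 difference from the silent mean -0.36, adjusted p = 0.75). The position of its probes on the mutated gene was not looked up, so GID1C does not check the labels. The third probe set called, 245736_at, has no single gene in the annotation, and its means were 2072 in ga-1 mock, 984 for gid1 mock seedlings and 785 for gid1 seedlings given GA3.

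Called genes whose silent groups differed most were named by the smallest F p. AT5G12050 gave 1246, 1186 and 1437 with GA signalling, 657, 744 and 922 in ga-1 mock and 650, 532 and 651 in gid1 with GA3. In gid1 mock it gave 1186, 1228 and 894, which overlaps the arrays with GA signalling. Its rise of 0.69 ± 0.12 (adjusted p = 0.0069) was made up of differences of 0.75, 0.24 and 1.08 against ga-1 mock, gid1 mock and gid1 with GA3. AT2G20620 stood at 62.1, 47.6 and 36.8 with GA signalling and at 31.2, 18.9 and 29.3 in gid1 mock. The other silent arrays lay between 2.4 and 4.6, so 2 of the 3 silent groups were near the lowest signals and 1 was not (log2 difference 2.81 ± 0.60, adjusted p = 0.026).

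AT1G23390, a Kelch-repeat F-box gene known to act on chalcone synthase, gave 3019, 2558 and 1822 with GA signalling and 2437, 1630 and 2064 in ga-1 mock, which overlap. The gid1 arrays lay between 1013 and 1661, and the highest of them, in gid1 mock, was above the lowest ga-1 mock array. The rise of 0.68 (adjusted p = 0.030) was 0.26 against ga-1 mock and 0.69 against gid1 mock (adjusted p = 0.12). It was 1.07 against gid1 with GA3 (adjusted p = 0.0060), the only single group against which it was called. The rise of 0.46 in AT1G65500 (adjusted p = 0.040) was 0.75 against gid1 mock, where the signal was 463 to 491, and 0.24 against gid1 with GA3. AT3G57800, named above, was 0.57 and 0.55 higher than the mock groups and 1.07 higher than gid1 with GA3. Among the probe sets without a single gene, 255461_at gave 234, 248 and 322 with GA signalling and 294, 181 and 296 in ga-1 mock, and 8.4 to 57.1 in the gid1 groups. It was called (log2 difference 2.22, adjusted p = 0.016), although its difference from ga-1 mock was 0.08, and it was high in both ga-1 groups and low in both gid1 groups. The probe set 263953_at rose by 2.09 (adjusted p = 0.035), and its lowest array with GA signalling, 107, overlapped gid1 mock replicate 2 at 115.

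**Figure D4:**
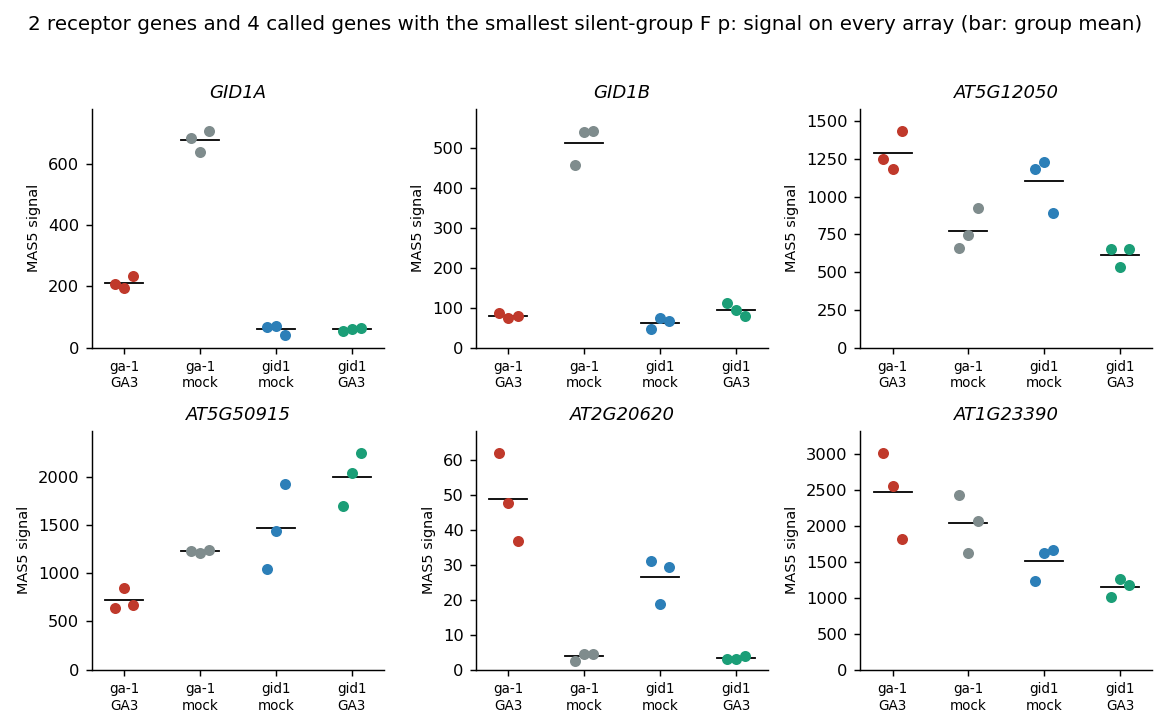
MAS5 signal on each of the 12 arrays (linear axis from 0) for the receptor genes GID1A and GID1B and for 4 called genes with small F p among the silent groups. Points are arrays and bars are group means. GID1A and GID1B are highest in ga-1 mock, with GID1A at an intermediate level in ga-1 with GA3, AT5G12050 and AT2G20620 are higher in gid1 mock than in the other silent groups, and AT5G50915 and AT1G23390 run in opposite directions from ga-1 mock to gid1 with GA3.

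Gene lists of the GA pathway show which of its parts followed the pattern. The perception and signalling list has 14 genes, 7 of them measured under a single name. SLY1 fell, and the other 6 were not called against the silent mean, although GID1A and GID1B were lower than in ga-1 mock. The median log2 difference of the 7 was -0.36, the value of GID1C, against 0.03 for all probe sets. GID1A, GID1B and GID1C are mutated in both gid1 groups, so their silent means mix mutated and unmutated genes. SPY and SEC, O-linked sugar transferases that modify DELLA proteins, had differences of 0.01 and -0.11, and SLY2, an F-box gene related to SLY1, of -0.56 (adjusted p = 0.56). The list of DELLA-activated genes has 12 entries, of which 6 were measured, 4 fell and none rose, with a median of -0.97. Those that fell were XERICO, IQD22, AT5G50915 and AT2G31730. The other measured members were GID1A and GID1B, which are mutated in gid1 and enter this median too. This list holds genes known from earlier results of these data to fall, so its count is not independent evidence of its direction.

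AT5G50915, a bHLH transcription factor gene, gave 640, 848 and 669 with GA signalling, below all silent arrays. Its silent groups stepped up from 1230, 1214 and 1237 in ga-1 mock through 1041, 1433 and 1924 in gid1 mock to 1700, 2041 and 2247 in gid1 with GA3, where neighbours in this order overlapped and the first and last did not. The log2 difference was -1.08 ± 0.14 (SE; adjusted p = 0.00058), with -0.78 against ga-1 mock and -1.47 against gid1 with GA3 (F adjusted p among the silent groups = 0.79). AT2G31730, another bHLH gene, fell by 0.67 on the log2 scale (adjusted p = 0.023) and overlapped ga-1 mock, with 592, 518 and 399 against 617, 530 and 825.

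**Figure D5:**
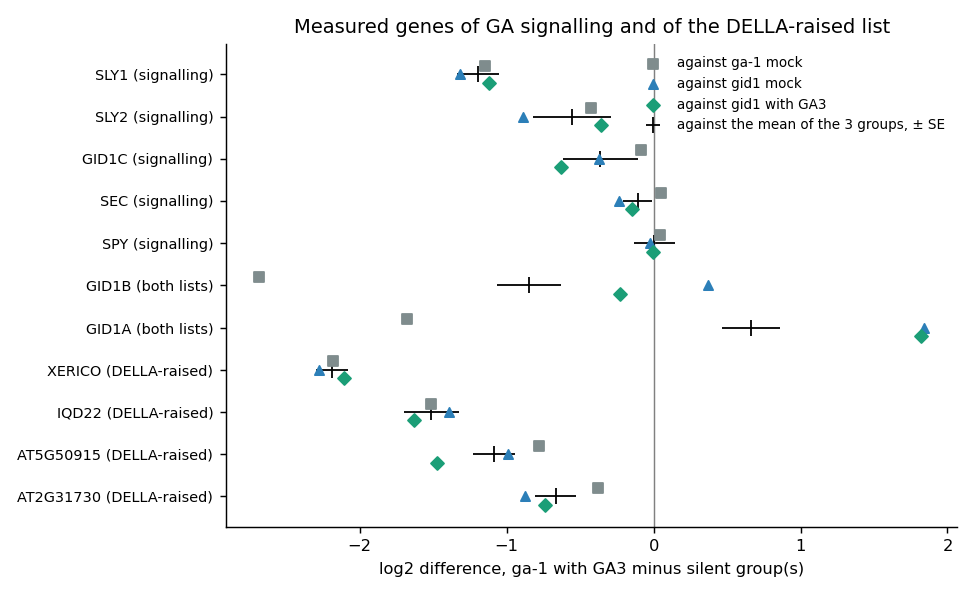
Log2 difference (x axis) between ga-1 with GA3 and each silent group (coloured symbols) or their mean (black, ± SE) for the 11 measured genes of the GA signalling and DELLA-raised lists. SLY1, XERICO and IQD22 have 3 symbols close together below 0, while GID1A and GID1B have ga-1 mock far to the left of both gid1 groups.

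None of the 6 measured GASA genes (small cysteine-rich peptides, many of them GA-responsive), 7 expansin, 5 xyloglucan endotransglucosylase, 5 auxin-response, 2 abscisic acid-response and 2 touch-response genes was called by limma. An unadjusted limma p under 0.05 was found for 2 of the 7 expansin, 2 of the 5 xyloglucan and 2 of the 5 auxin genes. Over all probe sets the share was 9.01% (2049). All of these list genes were higher with GA signalling. Their log2 differences were 0.60 (EXPA15), 0.77 (EXPA8), 0.43 (XTH18), 0.31 (XTH16), 0.74 (GH3.3) and 0.75 (IAA29). The shares of the lists were not tested against that of all probe sets. With 1.18% of all probe sets called, lists this short could hold no call without standing apart from the rest. Their median log2 differences were -0.08, 0.01, 0.04, 0.21, 0.15 and 0.36, against 0.03 for all probe sets. The auxin-conjugating enzyme gene GH3.3 came closest, with 1679, 1391 and 1323 with GA signalling, above the silent range of 568 to 1235 (log2 difference 0.74 ± 0.18, adjusted p = 0.058). It passed in 7 of 25 alternative settings. IAA29, also of the auxin list, gave 401, 283 and 261 against a silent range of 125 to 235 (0.75 ± 0.20, adjusted p = 0.094). EXPA15, an expansin gene, gave 656, 662 and 672 against a silent range of 279 to 568 (0.60 ± 0.17, adjusted p = 0.13). The member with the smallest p was AT1G22690 for GASA genes (-0.21, adjusted p = 0.66), XTH18 for the xyloglucan enzymes (0.43, adjusted p = 0.49), COR47 for abscisic acid (0.10, adjusted p = 0.85) and STZ for touch (0.38, adjusted p = 0.69). In the tissue lists it was ICL for seed (-2.34, adjusted p = 0.32), RCA for leaf (0.04), PYK10 for root (0.22) and AT1G29140 for pollen (0.32), none of them called. No gene of the lists for GA biosynthesis, GA catabolism, PIF and brassinosteroid-linked regulators, or jasmonate had a single-gene probe set in the annotation used, and these are not analysed here.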

How the data were processed

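Per the submitters' processing notes, the authors deposited MAS5 signals (no version is given), a linear intensity per probe set. On each array their mean without the lowest and highest 2% was 500.05. Groups came from the sample titles. A free-text description names GA3 for mock samples too, and the titles and source names were followed.

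Values were floored at 1 (1448 values lay below it) and taken to log2 with the authors' scaling kept. Control probe sets (64) were dropped, with no low-value filter. The model, limma 3.58.1 in R 4.3.3, had 4 group means (lmFit, contrasts, eBayes with trend), with Benjamini-Hochberg adjustment over 22746 probe sets and a threshold of 0.05. The F test used 2 contrasts among the silent groups. The members and lists were chosen with earlier results of these data known.

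Gene names came from the platform annotation, with symbols updated in a TAIR10.1 gene table: 13513 had 1 gene (13436 matched that table), 503 several, and 8794 were not listed. Of 198 entries in 16 lists, 51 were measured. Named genes were the 12 largest rises and falls called without overlap, 6 called genes by F p, up to 4 called members per list (or 1 by smallest p), the mutated genes and 4 unnamed probe sets. No probe set was named for GA1. Tested on simulated arrays of 22746 probe sets, 200 of them altered in ga-1 with GA3, the comparison found 164 at a log2 change of 1 and 197 at 2, with 7 false calls each time.

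Alternatives were scaling, low-value filters, log2(value + 32), no trend, array weights, a replicate block, the silent arrays as 1 group, and leaving out each array, each silent group or the arrays high in seed genes.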

Additional observations from a re-analysis of the deposited data

Results flagged for a closer look

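The response to GA3 was compared between the mutants (ga-1 minus gid1, on the log2 scale) in a test of the difference itself, which called 24 of 22746 probe sets (0.106%, limma adjusted p under 0.05). Among the genes and probe sets named above it was called for 8. Many of those named were chosen for a large difference on the same ga-1 GA3 arrays, which favours such calls. It was negative for 261768_at (-4.07, adjusted p = 3.3e-10), 248371_at (-3.73, adjusted p = 0.00028), GID1B (-3.28, adjusted p = 0.00082), XERICO (-2.01, adjusted p = 0.00010), AT5G40540 (-1.45, adjusted p = 0.0010) and IQD22 (-1.75, adjusted p = 0.048). It was positive for AT5G12050 (1.59, adjusted p = 0.0029) and AT2G20620 (6.66, adjusted p = 0.010). For AT5G12050 the response was 0.75 in ga-1 and -0.84 in gid1, and for AT2G20620 it was 3.70 and -2.97, so both mutants enter these differences. Neither gid1 response was called on its own, as limma called 0 probe sets between gid1 with GA3 and gid1 mock. AT2G20620 gave 2.4 to 4.6 in ga-1 mock and 3 to 3.9 in gid1 with GA3. These values are near the floor, so the size of its log2 responses depends on the scale. GID1B carries a mutation in gid1 and was near its lowest level there in mock seedlings. The seed genes were also higher in gid1 with GA3 than in gid1 mock, and their part in these differences was not tested.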

How the results depend on the processing

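The total of 268 calls lay between 164 and 242 when 1 array was left out. The lower calls (213) lay between 141 and 193, the higher calls (55) between 23 and 54, the calls against each silent group (77) between 36 and 71, and those of the F test (3) between 2 and 5. Without the intensity trend these counts were 95, 78, 17, 13 and 5. Without the 4 arrays high in seed genes they were 144, 121, 23, 36 and 2. Leaving out the gid1 GA3 group gave 35 higher calls, and the filter at the 50th percentile gave 1 call of the F test. The other settings kept each count within 1.5 times, and the cause of these shifts was not tested, though fits without arrays or groups use fewer samples.

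The replicate number as a block gave 227 calls (44 higher, 183 lower), 68 against each silent group and 2 in the F test. Same-numbered arrays of different groups did not deviate together (18 correlations from -0.061 to 0.051, none above 0.1), and 1 of 12 arrays correlated best with its own number, so the numbers were not treated as pairs.

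XERICO, AT5G40540, SLY1, IQD22, TRM28, AT4G16447, BZIP61, AT5G50915, 261768_at and 248371_at kept their calls in all alternatives run for them. Calls were lost most often for AT1G17540 (18 of 23), AT1G65500 (17 of 25) and AT3G07010 (16 of 25), and in 9 of 23 for AT2G20620, 10 of 25 for AT1G23390 and 5 of 23 for BZIP34. They were also lost in 12 of 24 for 263953_at, 8 of 24 for 255461_at and 8 of 25 for AT2G31730, of the DELLA-activated list. GID1A passed without the ga-1 mock group (1.83, adjusted p = 0.00017), and GID1B passed in 5 of 24 settings. Signs changed for uncalled genes only: GID1B was 0.070 without the ga-1 mock group, RCA was -0.036 after quantile normalization, -0.012 without the arrays high in seed genes and -0.062 to 0.16 when 1 array was left out. AT1G29140 was -0.0028 with log2(value + 32), -0.058 without the gid1 mock group and -0.32 to 0.73 when 1 array was left out.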

Other observations

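Further genes, singled out after their values were seen, also passed against each silent group. AT1G68570, known as NPF3.1, a membrane transporter reported to carry nitrate and GA, gave 548, 592 and 516 with GA signalling. Its silent arrays gave 1029, 914 and 1151 (ga-1 mock), 992, 1023 and 1258 (gid1 mock), and 955, 934 and 900 (gid1 with GA3). No silent array came down to the level with GA signalling, and the log2 difference was -0.88 ± 0.10 (SE; limma adjusted p = 0.00013). LHW, a bHLH gene that acts in vascular development of the root, fell by 0.84 on the log2 scale (adjusted p = 0.0011), with differences of -0.76, -0.80 and -0.97 against ga-1 mock, gid1 mock and gid1 with GA3. UGT76E11, a glucosyltransferase gene, fell by 1.20 (adjusted p = 0.00036), with -0.96, -1.19 and -1.46 in the same order.

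SPCH, a bHLH gene that starts the stomatal lineage, gave 100, 140 and 121 with GA signalling and 135 in gid1 GA3 replicate 1, so the groups overlapped (-0.92, adjusted p = 0.032), and it passed against no silent group alone. AT5G19730, of a pectin-modifying enzyme family, fell by 1.06 on the log2 scale (adjusted p = 0.0017) and passed against each silent group. AT1G60590, a pectin lyase-like gene, fell by 1.24 (adjusted p = 0.0093) and passed against 1 silent group alone. AT3G02910 had the tightest silent groups among the named calls shown here, with group means of 2339, 2321 and 2348 against 1255 ± 293 (SD, n = 3) with GA signalling (-0.92, adjusted p = 0.00054).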
